A study of Mus musculus with 12 samples.

Results

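The comparison described here is that of marginal zone (MZ) with follicular (FO) B cells of the spleen of control mice. It rests on 6 of the 12 RNA sequencing libraries of the series, chosen by their labels: the 3 FO and the 3 MZ libraries of control animals 1505, 1507 and 2003. The other 6 libraries are the same 2 cell types from conditional knockout (CKO) mice. All mice were C57BL/6 and 8 to 12 weeks old. Control mice carried VAVcre, a transgene whose promoter directs Cre recombinase to the blood lineages, and their genotype is labelled WT; they carried no deletion of Zbtb24. CKO mice carried VAVcre with the Zbtb24 knockout, labelled Zbtb24-/-, so every library in both genotypes comes from a mouse with Cre. Cells were separated with a magnetic bead kit for MZ and FO B cells, not by a flow cytometry gate, and libraries were made from 0.1 ug of total RNA. The labels give 1 FO and 1 MZ library for each animal number, so that each animal gave 1 library of each cell type.

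FO B cells circulate through blood and lymph and settle in follicles, where they meet antigen together with helper T cells. MZ B cells sit at the border of the white and red pulp, where blood passes slowly, and turn quickly into antibody-secreting cells when they meet blood-borne antigens and microbial products. They depend on signalling by the receptor Notch2, which is cut when it meets a Delta-like ligand on stromal cells. The freed part of the receptor then joins the DNA-binding protein RBPJ and Mastermind coactivators in the nucleus to switch on target genes. Shuttling of MZ B cells between marginal zone and follicle is directed by receptors for sphingosine 1-phosphate, oxysterols and chemokines. In mice, MZ B cells are recognised by high CD21, encoded by Cr2, and low CD23, encoded by Fcer2a.

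Reads counted in genes numbered 39502964, 41167006 and 40032502 in the FO libraries and 37831718, 44629250 and 36340116 in the MZ libraries, each triplet given in the order of animals 1505, 1507 and 2003, which holds for all triplets below. In a principal component analysis of the 6 libraries, the first component held 54.6% of the variance and separated the cell types, with FO libraries at -42.1, -46.4 and -33.3 and MZ libraries at 45.1, 26.3 and 50.4. The MZ library of animal 1507 lay nearest to the FO libraries. The second component held 21.9% and set the animals in the same order in both cell types. Zbtb24 was at 62.9, 61.2 and 61.2 counts per 1000000 reads counted in genes (CPM) in the FO libraries and 49.4, 53.3 and 54.7 CPM in the MZ libraries. It was lower in MZ libraries by -0.24 ± 0.07. CKO libraries held many Zbtb24 reads too, 1862 to 2164 in FO and 1518 to 1869 in MZ libraries. Control libraries held 2494 to 2544 and 1871 to 2348, so the presence of its reads does not check the genotype label. Of the 10 pan B cell markers, all were detected in every library, and 4 were higher and 0 lower in MZ libraries, Ms4a1, which encodes CD20, by 0.73 ± 0.07 on the log2 scale; without MZ Control replicate 1, 2 were called.

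Differences are log2 values of MZ minus FO with their standard error (SE), so that a positive value means a higher level in MZ B cells. A gene is called higher or lower, or said to differ, where edgeR's quasi-likelihood test gave p under 0.05 after Benjamini-Hochberg adjustment across all 17830 genes tested. By that test 4977 genes, 27.9% of those tested, differed between MZ and FO B cells of control mice. There were 2653 genes higher in MZ B cells, 14.9% of all tested, and 2324 lower, 13.0%. A difference of at least 2-fold was seen for 788 genes higher in MZ, 4.42%, and 452 genes lower, 2.54%. Values of the 3 MZ libraries all lay above those of the 3 FO libraries for 3953 genes, 22.2% of those tested, and all below for 3593, 20.2%. Counts of called list members below, other than those with the animal as a block, are to be read beside the 14.9% higher and 13.0% lower over all genes tested. Over all genes tested the median difference was 0.01, and among genes called the median absolute difference was 0.59. With the animal as a block, each MZ library is set against the FO library of the same animal. In that fit 7805 genes, 43.8% of those tested, differed, among them 4959 of the 4977. There 3999 genes were higher and 3806 lower, and counts of list members with the block are to be read beside that larger share. Where the block changed the call of a gene named below, its adjusted p with the block is given beside it. The spread of a gene in that fit is estimated together with that of other genes. Very small p-values there are therefore not a measure of the spread between the 3 pairs of that gene. Of the 177 called genes named in the text, 33 lost their call under at least 1 alternative, such as leaving out a library, and are named in the closing section. Within animals 1505, 1507 and 2003 the 1240 genes that differed at least 2-fold had a median difference in the direction of the call of 1.46, 1.26 and 1.38, and 1239 of them kept that direction in animal 1507. Without the MZ library of animal 1507, 5012 genes differed, 1523 of them at least 2-fold. The libraries are bulk RNA, so fewer cells of a type and less RNA per cell cannot be told apart.

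**Figure D1:**
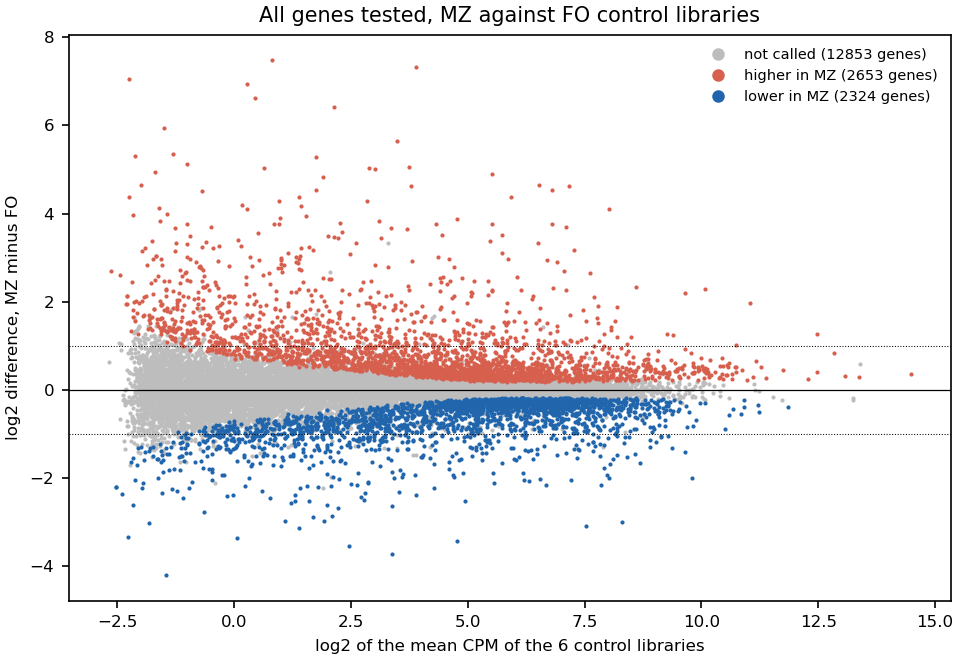
Each point is 1 of the 17830 genes tested, with the log2 of its mean CPM over the 6 control libraries on the x axis and the log2 difference between MZ and FO libraries on the y axis. The 2653 genes higher in MZ reach larger differences than the 2324 lower genes; dotted lines mark a 2-fold difference.

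The genes with the largest differences are given by what they encode, an order chosen after they were seen and not tested against other genes. Ackr3 and Ackr2, atypical chemokine receptors that take up chemokines without G protein signalling, were among the 15 genes with the largest rise in MZ B cells. Ackr3 was at 0.351, 0.457 and 0.491 CPM in FO and 26.4, 18.1 and 21.3 CPM in MZ libraries (5.65 ± 0.20), and Ackr2 rose from 5.28, 5.03 and 10.8 to 189.6, 148 and 191 CPM (4.65 ± 0.38). Rxfp1, a receptor for relaxin, was at 0.351, 0.385 and 0.712 CPM in FO and 16.5, 12.4 and 18.2 CPM in MZ libraries.

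Among the cytoskeletal and membrane genes, Nebl, which encodes the actin-binding protein nebulette, was at 2.13, 2.74 and 4.02 CPM in FO and 96.1, 78.6 and 89.5 CPM in MZ libraries (4.89 ± 0.23). Myof, encoding the membrane repair protein myoferlin, was at 22.7, 25.6 and 38.1 and 491, 469 and 515 CPM (4.09 ± 0.22). The lowest MZ library of both genes was far above the highest FO library. Myo18b, an unconventional myosin, and Tmod2, a tropomodulin that caps actin filaments, differed by 4.82 and 3.95 at low levels of 0.253 and 0.352 CPM in FO cells. Rap1gap, which switches off the small GTPase Rap1, rose from 6.71, 5.10 and 5.10 to 142, 92.2 and 115 CPM (4.36 ± 0.21), and Rasl11a, a Ras-like GTPase, differed by 4.53 ± 0.27. Tspan15, a tetraspanin that partners the protease ADAM10, was at 0.476, 1.56 and 1.13 CPM in FO and 26.0, 23.4 and 29.8 CPM in MZ libraries. The remaining genes of this group were Tsga13 (6.42), Ceacam2, an adhesion molecule (5.06), and Cyp8b1, a sterol hydroxylase of bile acid synthesis (5.29). Cyp8b1, at chr9:121914356-121916305, lies beyond the end of Ackr2, at chr9:121898355-121911074 on the other strand. It was counted 278, 232 and 248 times in MZ libraries, where Ackr2 was counted 7177, 6518 and 6734 times. The strand setting is not given, and how far reads from Ackr2 were counted in Cyp8b1 was not tested.

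The 15 genes with the largest falls in MZ B cells changed less than those that rose. Ryr2, which encodes a calcium release channel of the endoplasmic reticulum (ER) at chr13:11553102-12106945 (GRCm38), was at 20.6, 18.5 and 19.2 CPM in FO and 1.37, 1.54 and 1.47 CPM in MZ libraries, a difference of -3.72 ± 0.13 (adjusted p = 1.1e-08). Cacna1i, a voltage-gated calcium channel, was far more abundant and fell from 357, 328 and 305 to 37.6, 45.6 and 32.4 CPM (-3.10 ± 0.13). Kcnj1, a potassium channel, and Slc4a11, an ion transporter, differed by -2.89 and -2.68.

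Ngfr, the low-affinity neurotrophin receptor of the TNF receptor family, was at 11.0, 11.9 and 7.34 CPM in FO and 1.14, 0.953 and 0.482 CPM in MZ libraries (-3.54 ± 0.31). Dusp4, a phosphatase that switches off MAP kinases, fell from 58.6, 46.2 and 44.0 to 5.10, 5.04 and 3.55 CPM (-3.44 ± 0.17), and Rgl1, an exchange factor for Ral GTPases, from 66.1, 56.3 and 34.7 to 8.51, 11.3 and 7.20 CPM. Dll1, a ligand of Notch receptors, was at 6.56, 7.65 and 6.23 CPM in FO and 1.08, 1.11 and 1.13 CPM in MZ libraries (-2.62 ± 0.18). Sele, the adhesion molecule E-selectin, and Plk2, a stress-induced kinase, differed by -2.53 and -2.51. The others were Crip3 (-2.98), Kctd14 (-2.65), Ndrg1 (-2.44), Sdc1 (-2.38) and Fcer2a (-3.00).

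**Figure D2:**
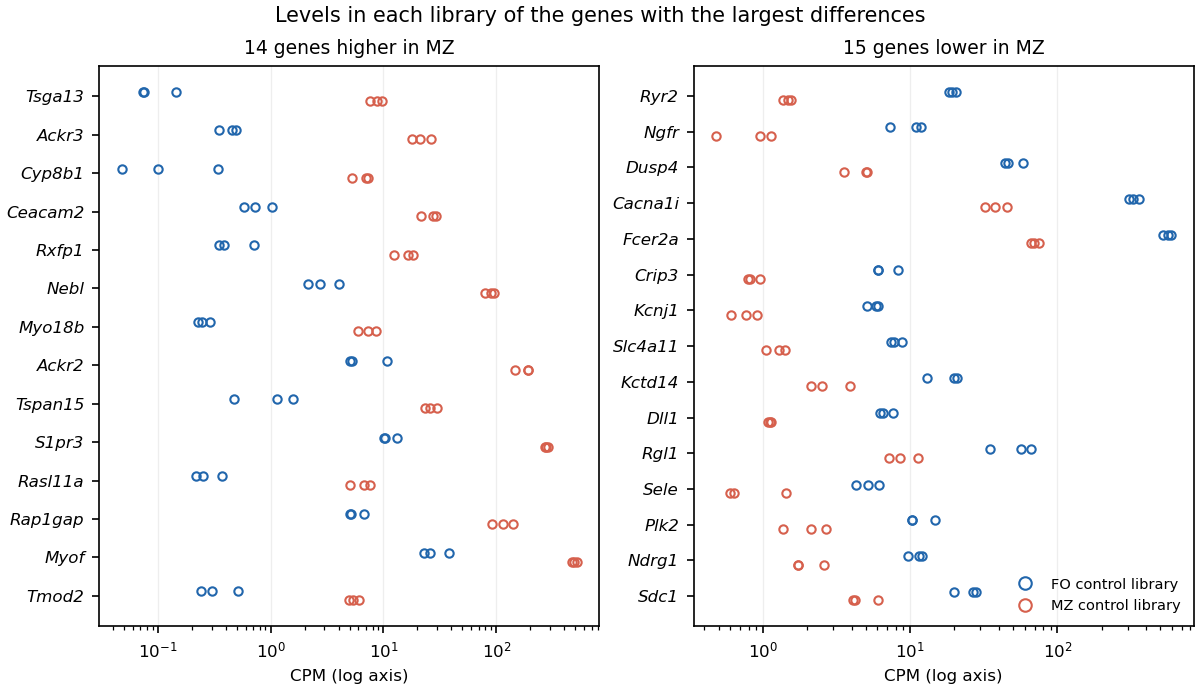
Rows are the 14 genes higher and 15 genes lower in MZ with the largest differences among those reported, and points are the CPM of single libraries on a log axis, blue for the 3 FO and red for the 3 MZ control libraries. The 2 cell types do not overlap for any of the 29 genes, which were chosen to have no overlap.

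The labelled cell types were set beside their markers. The marker lists were chosen with earlier results of these data known, so their counts are not an independent check of the labels. The MZ list also holds Ackr3, Nebl, Myof and S1pr3, which are among the largest rises. Of 15 MZ B cell markers, 14 were higher in MZ libraries, all of them at least 2-fold, with a list median of 2.46. Cr2, at chr1:195136811-195176716, was at 721, 813 and 1012 CPM in FO and 3164, 3245 and 3579 CPM in MZ libraries (1.97 ± 0.12, adjusted p = 2.6e-06). Cd1d1, which presents lipids to NKT cells, was at 45.1, 44.2 and 52.4 and 262, 177 and 243 CPM (2.27 ± 0.16), and Cd9, a tetraspanin of MZ and B-1 cells, at 12.2, 13.8 and 13.8 and 74.9, 71.2 and 72.6 CPM (2.46 ± 0.08). The groups were separate for all 3 genes, with the MZ library of animal 1507 the lowest of the MZ libraries for Cd1d1. Fcrl5, an inhibitory Fc receptor-like gene, rose from 23.3, 26.3 and 42.1 to 277, 260.1 and 294 CPM (3.18 ± 0.26), and Asb2, part of a ubiquitin ligase, from 11.7, 17.4 and 20.3 to 159.9, 142 and 195 CPM (3.33 ± 0.25). Itgb1, the beta-1 integrin chain, did not pass the test, at 70.4, 89.4 and 93.0 CPM in FO and 95.8, 122 and 103 CPM in MZ libraries (adjusted p = 0.076 in edgeR's quasi-likelihood test); with the animal as a block it passed (adjusted p = 6.5e-07, same tool).

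All 12 FO B cell markers differed, 11 of them lower in MZ libraries and 1 higher, with a median of -1.41. Fcer2a was at 592, 566 and 525 CPM in FO and 66.2, 74.7 and 69.3 CPM in MZ libraries (-3.00 ± 0.08, adjusted p = 1.8e-09 in edgeR's quasi-likelihood test). Ighd, the constant part of the IgD heavy chain, fell from 1511, 1496 and 1243 to 355, 379 and 331 CPM (-2.0 ± 0.09). Itgb7, the integrin chain of gut homing, was at 436, 436 and 371 and 119, 182 and 116 CPM (-1.57 ± 0.20). Each FO library lay above each MZ library for these 3 genes. The exception was Cxcr5, the follicle homing receptor, which was higher in MZ libraries, at 484, 488 and 459 CPM in FO and 603, 626 and 636 CPM in MZ (0.38 ± 0.06).

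T cell markers moved with the FO side. Of 16 T cell markers 13 were lower in MZ libraries and none higher, with a median of -0.84; their summed level was 884 to 992 CPM in FO and 508 to 722 CPM in MZ libraries, highest among the latter in animal 1507, and none was at 0. Without FO Control replicate 1 or 2, 8 of them were lower, and without MZ Control replicate 1, 7. With the animal as a block 11 of them were lower and 0 higher. Thy1 was at 41.4, 47.5 and 45.5 CPM in FO and 19.0, 30.4 and 18.4 CPM in MZ libraries (-0.99 ± 0.21). Bcl11b, a T cell transcription factor, had the largest fall of the list (-1.04 ± 0.18), a call it lost with the animal as a block (adjusted p = 0.12, edgeR's quasi-likelihood test). Ccr7, Klf2, Satb1, Cxcr4 and Il4ra are genes that T cells express too, and the part of T cell RNA in their differences was not tested. In the other lists of foreign cells, 2 of 9 NK cell markers (summed 92.7 to 140.2 CPM in FO and 75.3 to 121 in MZ) and 4 of 11 dendritic cell markers (226 to 271 and 174 to 207) were lower in MZ libraries. Of 15 macrophage markers 1 was higher, Marco, a scavenger receptor of marginal zone macrophages, at 0.526, 0.674 and 0.663 CPM in FO and 1.45, 1.36 and 2.24 CPM in MZ libraries (1.43 ± 0.28), while the summed list was at 258 to 511 and 224 to 416 CPM. None of 11 neutrophil or 10 erythroid and platelet markers tested was called. With the animal as a block the counts were 1 higher and 8 lower for NK cells, 0 higher and 7 lower for dendritic cells, 3 higher and 4 lower for macrophages, 0 higher and 8 lower for neutrophils and 0 higher and 6 lower for erythroid cells and platelets. The summed levels were 95.3 to 227 and 62.3 to 162 CPM for neutrophils, and 10.6 to 245 and 8.88 to 204 CPM for erythroid cells and platelets, the last lowest in animal 2003 in both cell types.

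Among genes downstream of Notch, Hes1, Hes5 and Dtx1 were higher in MZ B cells, while the feedback inhibitor gene Nrarp was lower. The receptors Notch1 and Notch2 and their DNA-binding partner Rbpj did not pass the test. Of 28 Notch pathway genes 27 were tested, 6 were higher and 7 lower, with a median of 0.09. With the animal as a block 10 were higher and 8 lower. The receptor Notch2 was at 943, 781 and 824 CPM in FO and 840.2, 846 and 860.5 CPM in MZ libraries (-0.00 ± 0.08), and Notch1 at 94.8, 96.5 and 90.6 and 97.3, 96.8 and 89.7 CPM (0.01 ± 0.06). Rbpj was at 41.1, 42.3 and 39.6 and 44.4, 45.7 and 40.4 CPM (0.09 ± 0.07). Libraries of both cell types overlapped for these 3 genes. The proteases Adam10 and Adam17, which make the first cut in the receptor, differed by 0.14 ± 0.09 and 0.15 ± 0.08, and Ncstn, a gamma-secretase gene, by 0.14 ± 0.08. None of these 3 passed, but with the animal as a block their adjusted p was 0.036, 0.044 and 0.048 (edgeR's quasi-likelihood test). The gamma-secretase genes Psen2, Aph1a and Psenen differed by 0.10, 0.09 and -0.12, none past the test in either fit. Spen, a corepressor bound by RBPJ, and the ubiquitin ligases Mib1 and Itch were not called either (0.16, 0.05 and -0.17), and with the block Spen and Itch passed (adjusted p = 0.018 and 0.018, same tool).

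Hes1, a repressor gene switched on by Notch, was at 28.1, 23.9 and 40.6 CPM in FO and 109.8, 82.7 and 125 CPM in MZ libraries (1.77 ± 0.27, adjusted p = 0.0096 in edgeR's quasi-likelihood test), lowest among the MZ libraries in animal 1507. Without FO Control replicate 1 its adjusted p was 0.0535 in the same test. Its relative Hes5 rose from 3.71, 2.84 and 3.61 to 11.8, 13.1 and 13.1 CPM (1.91 ± 0.15). Dtx1, a Deltex ubiquitin ligase gene and Notch target, rose from 341, 327 and 423 to 1687, 1673 and 1976 CPM (2.29 ± 0.11), and Dtx4 from 9.09, 7.27 and 12.3 to 28.0, 24.3 and 31.0 CPM (1.54 ± 0.19). Dtx3 was higher by 0.89 ± 0.08, while Dtx2 was slightly lower (-0.22 ± 0.07). In all 5 genes that rose no MZ library overlapped an FO library. Hey1 was at 0.0740 CPM in FO and 0.143 CPM in MZ libraries, too low to be tested. Nrarp, a feedback inhibitor of Notch, was lower in MZ, at 2.23, 1.71 and 1.52 CPM in FO and 1.14, 0.953 and 0.822 CPM in MZ libraries (-0.90 ± 0.24).

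The fringe genes encode enzymes that add sugars to Notch and so tune which ligand it answers to. Lfng fell from 179, 186 and 177 to 76.5, 91.9 and 86.7 CPM (-1.09 ± 0.08, adjusted p = 1.4e-06, edgeR's quasi-likelihood test), Mfng was lower by -0.24 ± 0.07, and Rfng was not called (0.10 ± 0.09). The Mastermind coactivators parted: Maml2 was higher (34.2, 32.7 and 34.5 CPM in FO and 49.6, 44.6 and 51.2 CPM in MZ, 0.52 ± 0.07), while Maml3 (33.2, 27.9 and 25.9 and 15.1, 14.8 and 13.0 CPM, -1.02 ± 0.11) and Maml1 (-0.34 ± 0.07) were lower. Numb, which counters Notch at the membrane, was lower by -0.34 ± 0.07. Lfng and Maml3 fell most of the genes on the Notch pathway list, which does not hold the ligand Dll1 given above.

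The letters TGGGAA are the core bound by RBPJ. RefSeq promoter sequences (GRCm38.p6) were searched for it and its reverse complement TTCCCA over 200 bases, from 250 to 51 before each gene start. Of 32851 windows of the RefSeq set, 5886, or 17.9%, hold it. Of the 28 Notch pathway genes 20 have 26 windows there, and 8 of the windows, in 7 genes, hold a match. Windows are shown for a Notch target that rose, for the fringe gene that fell, and for the defining MZ marker, so that the letters can be seen beside the expression values above; matches are in capitals, and all 3 are printed 5′ to 3′ on the strand of the gene.
Hes5, chr4:154960673-154960872, plus strand: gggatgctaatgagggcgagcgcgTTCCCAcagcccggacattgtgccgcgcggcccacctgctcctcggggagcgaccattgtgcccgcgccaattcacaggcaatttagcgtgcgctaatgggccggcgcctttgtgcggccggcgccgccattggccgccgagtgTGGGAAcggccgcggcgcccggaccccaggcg
Lfng, chr5:140607091-140607290, plus strand: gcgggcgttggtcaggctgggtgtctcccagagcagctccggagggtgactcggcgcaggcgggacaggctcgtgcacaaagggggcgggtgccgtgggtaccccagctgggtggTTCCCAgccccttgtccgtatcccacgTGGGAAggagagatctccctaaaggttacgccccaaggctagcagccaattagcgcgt
Cr2, chr1:195176770-195176969, minus strand: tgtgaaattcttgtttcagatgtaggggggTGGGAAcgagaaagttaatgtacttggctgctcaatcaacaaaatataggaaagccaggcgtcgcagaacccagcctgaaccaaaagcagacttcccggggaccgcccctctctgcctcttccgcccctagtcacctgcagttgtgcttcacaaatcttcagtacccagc
Matches begin 226 and 82 bases before the start in Hes5, 135 and 108 bases in Lfng, and 220 bases in Cr2. Of the 7 Notch pathway genes with a match, Hes5 and Maml2 were higher and Lfng and Maml3 lower in MZ B cells, and Rbpj, Psen2 and Psenen were not called. The windows of Dtx1, which rose, and Nrarp, which fell, hold no match. A match describes the sequence and is not a measured binding site. The Hes5 window also overlaps 1 exon annotated in Gencode M21, on a strand that was not looked up.

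**Figure D3:**
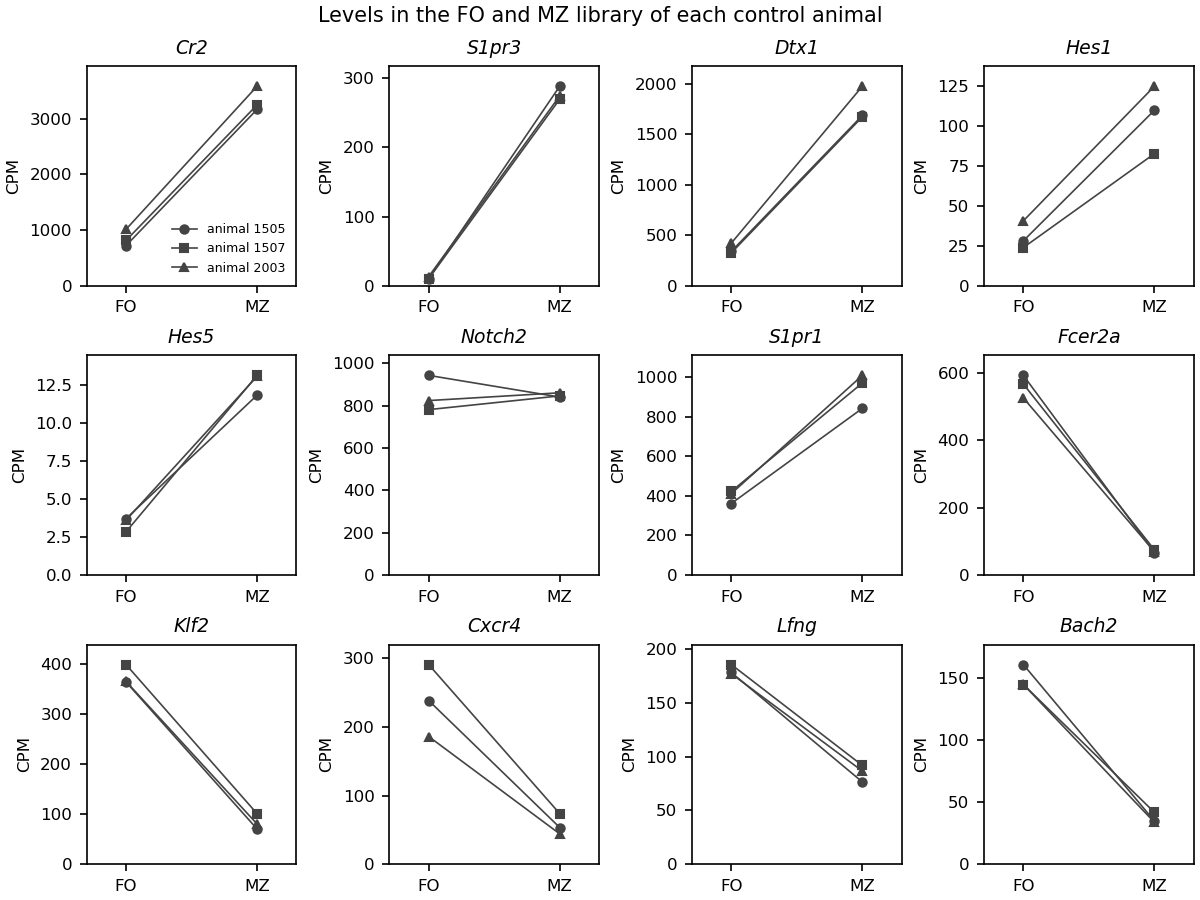
Each panel is 1 gene, and each line joins the FO and the MZ library of 1 control animal on a linear CPM axis that starts at 0. Lines rise in all 3 animals for Cr2, S1pr3, Dtx1, Hes1, Hes5 and S1pr1, fall for Fcer2a, Klf2, Cxcr4, Lfng and Bach2, and cross for Notch2.

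Of the receptors and regulators that place B cells in the spleen, 7 of 27 were higher and 15 lower in MZ libraries, against 14.9% and 13.0% over all genes. Among the sphingosine 1-phosphate receptors, S1pr3 (at chr13:51408639-51422797) was at 10.1, 10.3 and 13.3 CPM in FO and 288, 269.7 and 274 CPM in MZ libraries (4.62 ± 0.11, adjusted p = 1.8e-09, edgeR's quasi-likelihood test). S1pr1 was at 361, 422 and 411 and 842, 970.2 and 1008 CPM (1.24 ± 0.09). The family split, since S1pr4 fell from 279.6, 240.5 and 199 to 90.7, 97.4 and 91.1 CPM (-1.36 ± 0.11) and the scarcer S1pr2 and S1pr5 were lower by -0.71 ± 0.21 and -0.86 ± 0.23. S1pr1 and S1pr3 are the members that draw MZ B cells toward the blood-rich marginal zone.

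Of the 6 classical chemokine receptors on the list, Cxcr5 was higher and the other 5 were lower, while the atypical receptors Ackr2 and Ackr3, also on it, were higher as given above. Cxcr4, the receptor of CXCL12, fell from 239, 291 and 186 to 53.4, 73.7 and 44.2 CPM (-2.06 ± 0.27), opposite to Ackr3, which binds the same chemokine. Ccr7, which answers to T zone chemokines, fell from 292, 343 and 254 to 99.6, 134 and 103 CPM (-1.40 ± 0.16), and Ccr6 from 55.5, 50.7 and 60.4 to 27.0, 26.5 and 26.4 CPM (-1.06 ± 0.08). Cxcr3 and Ccr9 were lower by -0.67 ± 0.15 and -0.59 ± 0.17, at mean FO levels of 12.3 and 9.87 CPM. Gpr183, the oxysterol receptor also called EBI2, was at 163, 188 and 176 CPM in FO and 91.8, 107 and 94.0 CPM in MZ libraries (-0.85 ± 0.08), and the cannabinoid receptor Cnr2 was higher by 0.27 ± 0.07.

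Downstream of these receptors, Rgs10, which shortens G protein signals, rose from 12.9, 18.4 and 15.9 to 48.8, 72.5 and 89.7 CPM (2.16 ± 0.28). Other regulators of the same family were lower: Rgs13 by -2.46 ± 0.56 at 16, 26 and 56 reads in FO and 4, 10 and 3 reads in MZ libraries, Rgs14 by -0.45 ± 0.09 and Rgs2 by -0.39 ± 0.08. Rgs1, Rgs18 and Rgs19 were not called (-0.55 ± 0.25, 1.32 ± 0.74 and 0.04 ± 0.08); with the animal as a block Rgs1 and Rgs18 passed (adjusted p = 0.0046 and 2.2e-13, edgeR's quasi-likelihood test). The G protein genes Gnai2 and Gna13 were lower by -0.30 ± 0.07 and -0.49 ± 0.08, and the exchange factor Arhgef1 by -0.24 ± 0.07. Dock2 and Dock8, exchange factors for migration, did not pass (-0.17 ± 0.07 and 0.10 ± 0.07), Dock2 passing with the block alone (adjusted p = 0.04, same tool).

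Adhesion genes were lower more often than higher, 9 against 5 of 25, so 56% were called, against 27.9% of all genes tested. With the animal as a block 12 were lower and 7 higher. Besides Itgb7, Alcam fell from 41.7, 46.1 and 37.9 to 9.96, 13.9 and 7.77 CPM (-1.99 ± 0.22) and Itga6, an integrin chain for laminin, from 49.0, 50.2 and 56.1 to 18.1, 23.1 and 19.1 CPM (-1.36 ± 0.10). Esam was lower by -1.24 ± 0.39 at a mean of 0.697 CPM in FO libraries. Cd9 was the one member at least 2-fold higher, and Cd81, a tetraspanin of the B cell surface, came next with 139.9, 140.3 and 137 CPM in FO and 268, 278 and 286 CPM in MZ libraries (0.99 ± 0.06). Itgam and Cd47 were not called (-0.32 ± 0.12 and -0.23 ± 0.08) except with the animal as a block (adjusted p = 9.9e-04 and 7.4e-04, edgeR's quasi-likelihood test).

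Kruppel-like factors, several of which hold lymphocytes in a resting, recirculating state, were lower in 8 of 11 members and higher in 2, with a median of -0.65. Klf2 fell from 365, 399 and 366 to 70.3, 101 and 80.3 CPM (-2.17 ± 0.13, adjusted p = 4.8e-06, edgeR's quasi-likelihood test). Klf4 fell from 7.46, 11.1 and 9.47 to 3.57, 5.04 and 4.23 CPM (-1.12 ± 0.18), Klf3 from 161, 155 and 145 to 88.3, 86.7 and 77.1 CPM (-0.87 ± 0.07) and Klf6 from 139, 155 and 158 to 79.0, 86.0 and 83.8 CPM (-0.86 ± 0.07). Klf10, Klf16, Klf13 and Klf7 were lower by -0.65, -0.55, -0.30 and -0.28, and Klf9 and Klf12 higher by 0.42 and 0.61. Klf11 had one of the widest gaps, -1.49 ± 0.53, and missed the test (adjusted p = 0.12, same tool). Its levels were 30.9, 11.3 and 20.2 CPM in FO and 11.1, 4.70 and 6.52 CPM in MZ libraries, in the same order of animals in both cell types, and with the animal as a block the adjusted p was 1.1e-28.

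B cell transcription factors were lower in 14 and higher in 6 of 34 members, so 58.8% were called, against 27.9% of all genes tested. With the animal as a block 15 were lower and 10 higher. Bach2, a repressor that holds back plasma cell differentiation, fell from 161, 145 and 145 to 34.8, 41.8 and 33.7 CPM (-2.03 ± 0.09, adjusted p = 6.0e-08, edgeR's quasi-likelihood test). Bcl6, the factor of germinal centre B cells, fell from 105, 112 and 87.7 to 33.0, 40.7 and 32.0 CPM (-1.53 ± 0.12). Satb1 and Fli1 were lower by -1.19 ± 0.08 and -1.07 ± 0.08. In the other direction, Prdm1, which encodes the plasma cell factor Blimp-1, was at 2.30, 3.97 and 4.17 CPM in FO and 9.06, 9.76 and 8.54 CPM in MZ libraries (1.39 ± 0.21). Prdm1 and its repressors Bach2 and Bcl6 thus differed in opposite directions in all 3 animals. Irf4 was higher by 0.44 ± 0.06 and Bhlhe41 by 0.95 ± 0.12. Pax5, the factor that keeps B cell identity, was not called (-0.14 ± 0.06).

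Of the 12 plasma cell programme genes 4 were higher and 4 lower, so the list did not move as a unit. Mzb1, an ER protein that helps assemble IgM, rose from 106, 109.9 and 102 to 338, 315 and 328 CPM (1.62 ± 0.07). Sdc1, the plasma cell surface protein CD138, fell from 26.9, 28.0 and 19.9 to 4.20, 6.01 and 4.08 CPM (-2.38 ± 0.19), and the ER genes Txndc5 and Fkbp11 were lower by -0.83 ± 0.08 and -1.35 ± 0.27. Jchain, which joins IgM and IgA multimers, was at 77.1, 136 and 104 CPM in FO and 49.5, 112 and 33.2 CPM in MZ libraries and did not pass (-0.70 ± 0.56), nor did Xbp1 (0.08 ± 0.06). In the list of 28 ER chaperones and unfolded protein response genes 9 were higher and 4 lower, with a median of 0.08. Pdia4, a disulphide isomerase, stood apart at 268, 291 and 299 CPM in FO and 1329.7, 1330.4 and 1287 CPM in MZ libraries (2.20 ± 0.07, adjusted p = 6.2e-09, edgeR's quasi-likelihood test). Edem1, which clears misfolded proteins, and the stress sensors Atf6 and Ern1 were higher by 0.75 ± 0.10, 0.57 ± 0.08 and 0.44 ± 0.08, and the chaperone Hspa5 by 0.39 ± 0.09. The sensor Eif2ak3 was not called (-0.18 ± 0.07) except with the animal as a block (adjusted p = 0.011, same tool).

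Of the 11 immunoglobulin constant genes tested, 3 were higher and 3 lower in MZ libraries. Ighm, for IgM, was at 4655, 5421 and 4594 CPM in FO and 6108, 7032 and 6172 CPM in MZ libraries (0.40 ± 0.09), while Ighd fell as given above. Of the light chains, Igkc was lower (-0.43 ± 0.10) and Iglc1 and Iglc2 were higher (0.55 ± 0.13 and 0.44 ± 0.06). Reads that match more than 1 of the near-identical lambda constant genes may be listed under an entry that names no gene, which makes single values uncertain. Ighg1 was lower by -1.62 ± 0.46 with 8.14, 4.79 and 8.69 CPM in FO and 1.88, 1.29 and 3.89 CPM in MZ libraries, and Igha, at 440.3, 419 and 438 and 199, 324 and 144 CPM, did not pass (adjusted p = 0.11, edgeR's quasi-likelihood test).

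In B cell receptor signalling 11 of 29 genes were higher and 10 lower, with a median of -0.02. The coreceptor genes Cr2 and Cd81 rose as given above. Blk, a Src family kinase, was at 566, 552 and 548 CPM in FO and 1057, 1047 and 1055 CPM in MZ libraries (0.92 ± 0.06), and the adaptor Blnk at 324, 331 and 349.9 and 517, 526 and 564 CPM (0.68 ± 0.07). Vav2, an exchange factor for Rac, was higher by 0.56 ± 0.07. Rasgrp3, which activates Ras after diacylglycerol is formed, fell from 224, 204 and 236 to 87.1, 86.4 and 89.5 CPM (-1.34 ± 0.07). Btk, a kinase of the same cascade, was not called (-0.17 ± 0.06) except with the animal as a block (adjusted p = 0.014, edgeR's quasi-likelihood test).

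Of the 17 inhibitory receptors and phosphatases, 6 were higher and 4 lower. Lair1, a collagen receptor, rose from 3.91, 7.82 and 7.58 to 20.1, 18.3 and 25.1 CPM (1.72 ± 0.29) and the phosphatase Ptpn22 from 42.8, 55.2 and 57.5 to 131, 140.2 and 133 CPM (1.38 ± 0.10). Btla fell from 677, 625 and 666 to 312, 271 and 311 CPM (-1.14 ± 0.08), and Cd5 and Pdcd1 were lower by -0.57 ± 0.11 and -0.75 ± 0.24. Cd5 and Pdcd1 are also T cell genes, and the T cell markers given above fell beside them. Ptpn6, the phosphatase SHP-1, was not called (-0.18 ± 0.07) except with the block (adjusted p = 0.026, edgeR's quasi-likelihood test).

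Toll-like receptors and their adaptors, which sense microbial products, were higher in MZ B cells in 12 of 20 genes tested and lower in 2, with a median of 0.27. Tlr3, the endosomal sensor of double-stranded RNA, was at 3.18, 3.15 and 3.36 CPM in FO and 32.4, 19.9 and 21.8 CPM in MZ libraries (2.93 ± 0.19, adjusted p = 2.8e-06, edgeR's quasi-likelihood test), and its adaptor Ticam1 at 25.4, 23.3 and 21.5 and 47.1, 40.6 and 43.5 CPM (0.90 ± 0.09). Tlr7, a sensor of single-stranded RNA, rose from 35.3, 32.8 and 43.8 to 78.9, 67.6 and 86.5 CPM (1.06 ± 0.13). Both genes of the RP105 complex were higher: Cd180 by 0.94 ± 0.08 and its partner Ly86 by 0.70 ± 0.07. Ly96, the MD-2 subunit that lets TLR4 bind lipopolysaccharide, rose from 1.65, 2.0 and 2.18 to 7.71, 7.42 and 8.17 CPM (2.0 ± 0.17). Irak4, a kinase shared by most of these receptors, was not called (0.09 ± 0.07).

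NF-kB genes were mostly lower or not called, with 9 of 17 lower and 1 higher, so 58.8% were called, against 27.9% of all genes tested. With the animal as a block 10 were lower and 3 higher. The inhibitor Nfkbia, itself a target of the pathway, fell from 318, 299 and 253 to 184, 184 and 173 CPM (-0.69 ± 0.08). Tnfaip3, the brake A20, was lower by -0.49 ± 0.07, the kinase Ikbkb by -0.41 ± 0.07, Bcl3 by -0.36 ± 0.09, and the subunits Rel and Nfkb2 by -0.34 ± 0.07 and -0.34 ± 0.08. All these differences were under 2-fold. The nuclear inhibitors Nfkbid and Nfkbiz did not pass (0.56 ± 0.17 and 0.38 ± 0.13), but were higher in MZ with the animal as a block (adjusted p = 8.2e-13 and 2.3e-08, edgeR's quasi-likelihood test). In the TNF receptor family and TRAF list, Tnfrsf21 rose from 7.16, 9.41 and 11.2 to 32.0, 33.3 and 36.0 CPM (1.87 ± 0.15) and Traf1 from 89.7, 86.5 and 96.3 to 207, 179 and 209 CPM (1.13 ± 0.08), and 7 members were lower, among them Tnfrsf1a (-0.69 ± 0.18) and Ltb (-0.50 ± 0.08). Without MZ Control replicate 3 that list held 8 calls in place of 13. With the animal as a block 6 of its members were higher and 10 lower. Among 16 BCL2 family genes tested, the killer gene Bid rose from 45.3, 45.7 and 46.5 to 145, 139 and 128 CPM (1.58 ± 0.07) and another, Bmf, fell from 103, 87.4 and 103 to 32.8, 27.4 and 36.4 CPM (-1.61 ± 0.11). The survival gene Bcl2l1 was lower by -0.81 ± 0.23 and Bcl2l2 higher by 0.63 ± 0.16; Bcl2l11, which encodes the killer protein BIM, was not called (-0.13 ± 0.07).

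Immediate early genes, which respond within minutes to receptor signals or to handling of cells, were lower in 9 of 21 members and higher in 0. Ier2 fell from 162, 129 and 127 to 60.2, 56.8 and 55.1 CPM (-1.28 ± 0.10), Fos from 35.4, 40.4 and 26.2 to 17.1, 15.9 and 13.6 CPM (-1.13 ± 0.16) and Jund from 284, 254 and 282 to 132, 127 and 149 CPM (-1.01 ± 0.08). Junb and Egr1 were lower by -0.82 ± 0.11 and -0.87 ± 0.14, and Zfp36 and Egr3 did not pass (-0.62 ± 0.19 and -0.68 ± 0.21) except with the animal as a block (adjusted p = 4.0e-15 and 2.4e-13, edgeR's quasi-likelihood test). With the block 1 higher and 14 lower members passed. Activation genes split instead, 5 of 12 higher and 4 lower. The costimulators Cd80 and Cd86 rose, Cd86 from 25.5, 24.8 and 24.7 to 63.8, 55.2 and 53.7 CPM (1.20 ± 0.08) and the scarce Cd80 by 1.62 ± 0.21, and the growth regulator Myc rose from 61.7, 56.8 and 52.7 to 137, 115 and 122 CPM (1.13 ± 0.08). Cd69, which pulls S1PR1 from the cell surface, fell from 55.2, 70.8 and 51.3 to 22.5, 28.6 and 21.6 CPM (-1.29 ± 0.15), and Icosl and Cd83 were lower by -0.88 ± 0.07 and -0.83 ± 0.07.

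Antigen presentation genes differed by molecule. The lipid-presenting Cd1d2 was higher by 3.10 ± 0.30 at 0.351, 0.457 and 0.564 CPM in FO and 5.10, 2.65 and 4.11 CPM in MZ libraries. It is a near copy of Cd1d1, and reads that match both may not be counted in either. Ciita, the master regulator of MHC class II genes, fell from 1176, 989.8 and 1001 to 576, 591 and 598 CPM (-0.84 ± 0.08), and H2-Ob, part of a brake on class II peptide loading, from 1214, 1187 and 1088 to 742, 705 and 723 CPM (-0.69 ± 0.07). H2-DMb1 and H2-Eb2 were lower by -0.50 ± 0.08 and -0.52 ± 0.06, while H2-Ab1 and Cd74, a class II chain and the invariant chain, were not called (-0.24 ± 0.08 and -0.24 ± 0.08) except with the block (adjusted p = 0.0069 and 0.013, edgeR's quasi-likelihood test). In total 3 of 21 were higher and 6 lower.

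Of 24 cytokine and cytokine receptor genes tested, 4 were higher and 12 lower. Il9r rose from 141, 150.1 and 142 to 399, 377 and 387 CPM (1.42 ± 0.06), and Csf2rb, the shared receptor chain for IL-3, IL-5 and GM-CSF, from 27.8, 31.7 and 37.1 to 139.6, 116 and 146 CPM (2.06 ± 0.12). Il10, the gene of an inhibitory cytokine, was counted 9, 2 and 7 times in FO and 58, 44 and 20 times in MZ libraries (2.78 ± 0.51). Il21r fell from 295, 303 and 258 to 121, 134 and 119 CPM (-1.19 ± 0.08) and Il4ra from 758, 770.5 and 641 to 304, 341 and 312 CPM (-1.18 ± 0.08); both receive signals from helper T cells. Tnf and Il7r were not called (-0.15 ± 0.07 and -0.77 ± 0.41).

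Glycolysis genes were higher and cholesterol genes mostly lower in MZ B cells where they differed. Of 20 glycolysis genes 9 were higher and none lower, with a median of 0.21. Hk2, which starts glucose breakdown, rose from 12.9, 16.8 and 18.1 to 20.3, 28.3 and 22.8 CPM (0.58 ± 0.15), and Tpi1, Pgk1, Gpi1 and Ldha were higher by 0.55 ± 0.07, 0.49 ± 0.07, 0.40 ± 0.06 and 0.32 ± 0.08. With the animal as a block 11 of them were higher and 4 lower. Without MZ Control replicate 3, 4 genes were called, all higher. Of 23 cholesterol genes 11 were lower and 2 higher, with a median of -0.33. Abca1, which exports cholesterol, fell from 313, 289 and 297 to 118, 135 and 117 CPM (-1.28 ± 0.07). The synthesis genes Sqle, Hmgcs1 and Idi1 were lower by -0.70 ± 0.14, -0.69 ± 0.14 and -0.59 ± 0.19, whereas the exporter Abcg1 was higher by 0.56 ± 0.13. Without MZ Control replicate 1, 8 genes of the list were called.

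Of 22 cell cycle genes 1 was called, against 27.9% of all genes; it was Tyms, at 17.3, 15.8 and 14.1 CPM in FO and 20.4, 22.5 and 18.5 CPM in MZ libraries (0.38 ± 0.11). In the fit with the block 7 were higher and 2 lower, where 43.8% of all genes were called. Of 19 interferon-stimulated genes 4 were higher and 2 lower, so 31.6% were called, near the 27.9% of all genes. Isg15 was at 5.96, 4.57 and 5.96 CPM in FO and 14.7, 11.6 and 16.4 CPM in MZ libraries (1.37 ± 0.16). Oas3 fell from 24.2, 17.6 and 27.8 to 13.8, 10.4 and 14.1 CPM (-0.86 ± 0.19). With the block 10 were higher and 4 lower. Without MZ Control replicate 2, 10 interferon-stimulated genes were called. Class switch and germinal centre genes were lower in 8 of 16 members, among them the scarce Gcsam (-1.14 ± 0.28) and Mybl1 (-1.02 ± 0.33) and the more abundant Bcl6. Without FO Control replicate 3 or MZ Control replicate 1, 5 genes of that list were called in place of 9, and without MZ Control replicate 3, 3. Among 9 B-1 cell markers 3 were higher and 2 lower; Ahr, the aryl hydrocarbon receptor, rose from 12.1, 8.30 and 15.5 to 68.4, 37.5 and 60.6 CPM (2.21 ± 0.36) and Plscr1 by 1.54 ± 0.12. With the block 4 higher and 4 lower members of that list passed. Of the 7 transitional and immature markers tested 1 was higher and 3 were lower. Vpreb3 fell from 64.8, 60.2 and 59.3 to 20.2, 22.6 and 25 CPM (-1.44 ± 0.09) and Cd93 from 20.9, 18.8 and 27.0 to 8.51, 10.4 and 11.3 CPM (-1.14 ± 0.15), while Cd24a was higher by 0.51 ± 0.08.

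**Figure D4:**
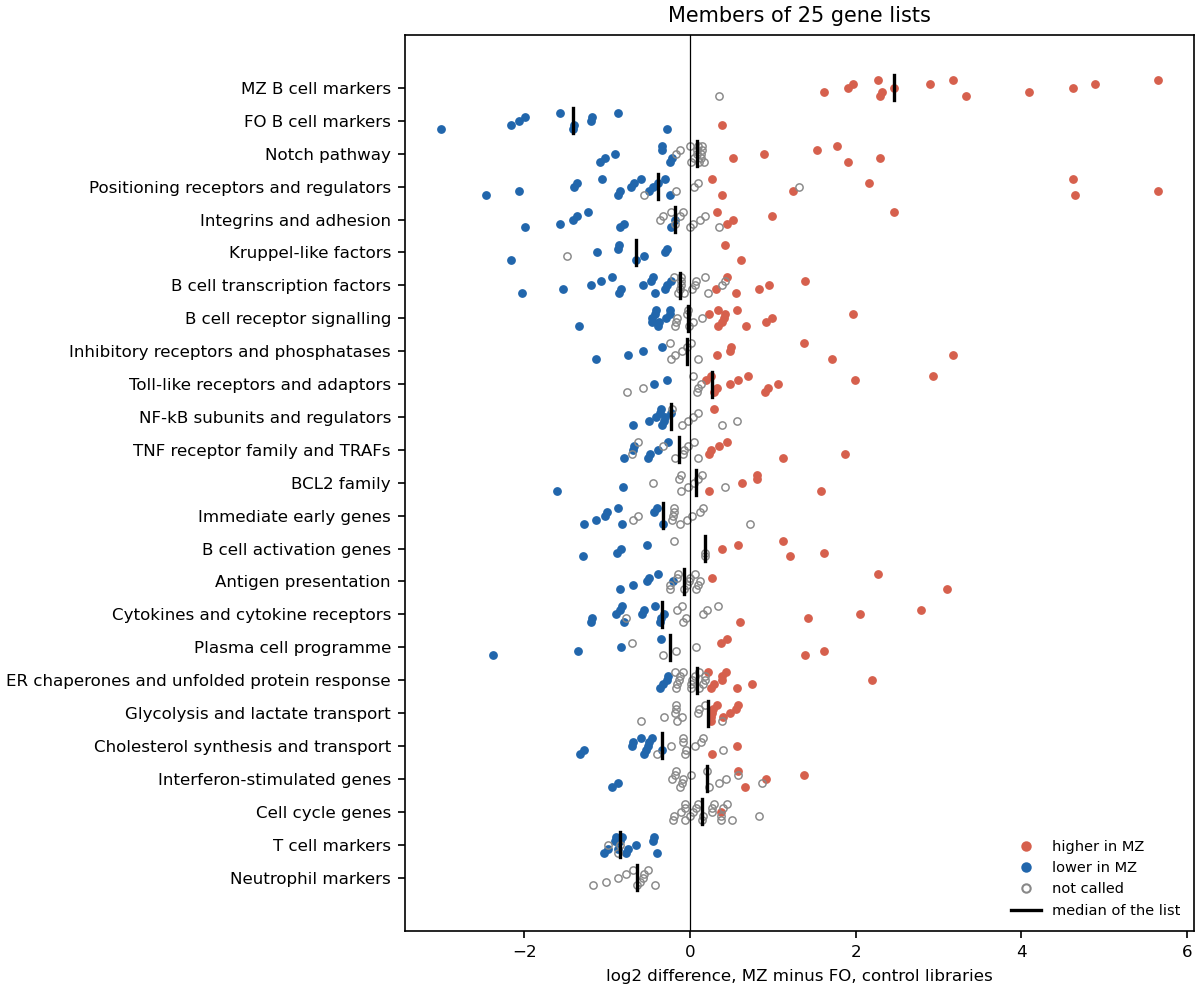
Rows are 25 of the gene lists, and each point is the log2 difference of 1 member between MZ and FO control libraries, red where higher, blue where lower and open where not called; black bars are list medians. The MZ marker list has a median of 2.46 and the FO marker list of -1.41, while most other lists hold members on both sides of 0.

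The same comparison was made in the 6 libraries of CKO mice to see which differences between MZ and FO B cells were also seen there; the 2 comparisons share no library. In CKO mice 3243 of 17712 genes differed, 18.3%. Of the genes called in control mice and tested in both, 4910 of 4922 had the same sign in CKO mice, and 2803 were called in both, 56.3% of the control calls and 86.4% of the CKO calls, none with opposite sign. Among the genes that differed at least 2-fold in control mice, 1182 of 1185 had the same sign in CKO mice and 916 were called. Their median absolute difference was 1.43 in control and 1.27 in CKO mice. Being chosen by their size in control mice tends by itself to raise the control median, so the 2 medians do not compare the genotypes. Cr2 differed by 1.62 ± 0.17 in CKO mice, S1pr3 by 4.44 ± 0.28, Hes1 by 1.49 ± 0.09, Dtx1 by 2.36 ± 0.13, Klf2 by -1.86 ± 0.17 and Fcer2a by -2.74 ± 0.11, beside the control values given above. Nrarp and Cxcr3, both lower in MZ libraries of control mice, were not called in CKO mice (-0.09 ± 0.24 and -0.04 ± 0.34). Of 12 FO markers 10 were lower and of 15 MZ markers 14 higher in MZ libraries of CKO mice, while 4 of 16 T cell markers were lower. Without FO CKO replicate 1 the count in CKO mice was 1898, and with the animal as a block it was 6333.

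The test of the difference itself, over all 12 libraries and 18546 genes, called 0 genes with edgeR's quasi-likelihood test, with 238 genes at an unadjusted p under 0.05. DESeq2 and limma-voom, like that fit run without the animal as a block, also called 0. With the animal as a block, edgeR called 4 genes, which are given in the closing section. A call in control mice without one in CKO mice does not show that the difference was lost there.

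**Figure D5:**
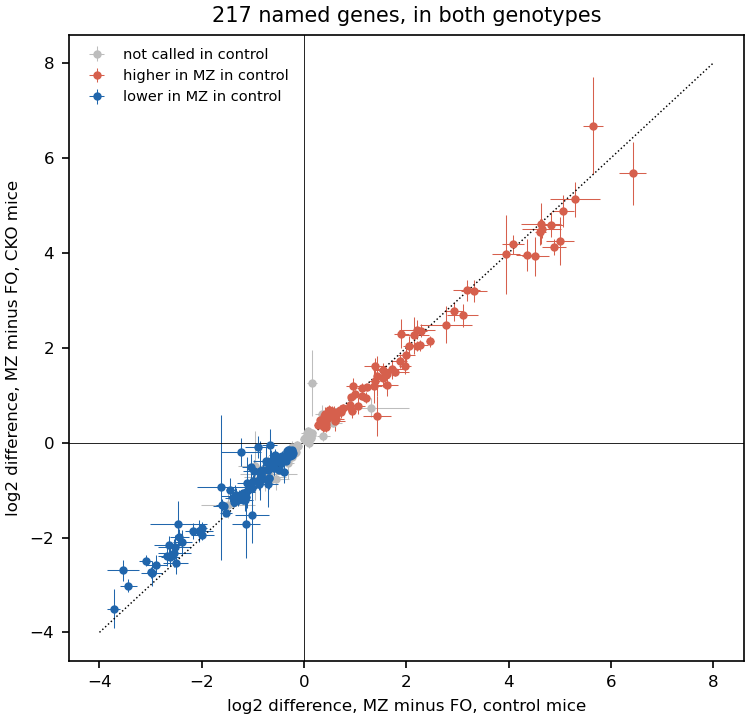
Points are the 217 genes named in the text and tested in both genotypes, with the log2 difference between MZ and FO libraries in control mice on the x axis and in CKO mice on the y axis, bars showing the standard error on each axis. The dotted line marks equal differences. Points reach from Tsga13 at 6.42 and 5.68 to Ryr2 at -3.72 and -3.50. Some lie off the line, such as Nrarp at -0.90 and -0.09 and Cxcr3 at -0.67 and -0.04.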

How the data were processed

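The authors deposited unnormalized counts for 46078 Ensembl genes in 12 libraries. Tools named, without versions, are TopHat, HTSeq and DESeq2, with builds GRCm38 and mm10, per the submitters' processing notes. Annotation release and strand setting are not given in the sources used here, so reads of overlapping or antisense genes cannot be told apart, and the alignment parameters could not be checked. The 5 last entries name no gene, held 43.2 to 49.8% of the listed reads in the control libraries, and were left out. Symbols and GRCm38 coordinates come from Gencode M21, which holds 45229 of the genes.

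The test was that of edgeR 4.0.16 under R 4.3.3: filterByExpr, TMM scaling, robust quasi-likelihood F test, two-sided, Benjamini-Hochberg adjustment over all genes tested, threshold 0.05. CPM use TMM-adjusted library sizes. The SE is the absolute log2 difference divided by the square root of F. DESeq2 1.42.0 and limma 3.58.1 served as alternatives, beside other scaling, no filter, no robust estimates, all 12 libraries in 1 fit, immunoglobulin segments left out, each library left out and the animal as a block.

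The reported fit has no block. FO and MZ libraries share animal numbers in their labels; that a number marks 1 mouse is read from these labels. Deviations from the group means correlated across genes at 0.435, 0.631 and 0.535 for libraries with the same number. For different numbers the values were -0.445 to -0.134. Deviations from a group mean cancel within each cell type, so positive values for the same number bring negative ones for different numbers. Libraries with the same number were thus alike, and the source of the likeness was not tested.

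Genes named are the 15 with the largest difference in each direction, taken from genes that reach a mean of 5 CPM in 1 cell type and whose groups do not overlap, without predicted genes, pseudogenes and V, D and J segments, then up to 6 called and 2 uncalled members of each of 37 lists (566 genes, 565 in the file), and all Notch, positioning and Kruppel-like genes. Some genes that this rule names are not reported here. The comparison, the members and the lists were chosen with earlier results of these data known. With 3 libraries against 3, a permutation test cannot give less than 0.1 and none is given. P-values of the reported fit set differences against the spread between these 3 mice of a group, which edgeR estimates with help from other genes. With the block few degrees of freedom are left for each gene, so the p-values rest even more on other genes. Very small values in that fit do not measure the spread of 3 pairs. Depth limits counting error alone; no molecular identifiers are named, so reads may be copies of 1 molecule.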

Additional observations from a re-analysis of the deposited data

Results flagged for a closer look

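The difference between MZ and FO B cells was set against the same difference in CKO mice, gene by gene. With the animal as a block, edgeR's quasi-likelihood test called 4 of 18546 genes. They are given here because the test of the difference itself passed. Without the block it called 0, with 238 genes at an unadjusted p under 0.05. These genes were named after their values were seen, apart from Cdca7. Values are the log2 difference in CKO mice minus that in control mice, with the Benjamini-Hochberg adjusted p of that fit. Cdca7, a gene mutated in ICF syndrome and placed downstream of ZBTB24, had 1.14 (adjusted p = 0.0025). In control mice it did not pass the test between cell types, at 31.9, 34.0 and 32.6 CPM in FO and 33.3, 42.7 and 33.9 CPM in MZ libraries. In CKO mice its levels were far lower, at 0.996, 2.63 and 0.544 CPM (45, 105 and 21 reads) in FO and 2.76, 5.35 and 1.87 CPM (111, 211 and 68 reads) in MZ libraries, so its 1.14 compares low residual levels there with those of control mice. Mcoln3, an endolysosomal cation channel gene, had -0.72 (adjusted p = 0.0025); it was higher in MZ B cells by 2.09 in control and by 1.38 in CKO mice. The histone genes Hist1h4a and Hist1h4j had 0.63 (adjusted p = 0.03) and 0.54 (adjusted p = 0.048). H4 genes have near-identical copies, and reads that match several of them may not be counted in any, so single values are uncertain. With 3 libraries in a group no library was tested as an outlier.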

How the results depend on the processing

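Under every alternative listed above other than the block, the count of genes that differed between MZ and FO B cells of control mice stayed within 1.5 times of 4977, and 0 genes called both there and under an alternative changed direction. Leaving out 1 library gave 3585 to 5012 genes, 1089 to 1523 of them at least 2-fold, 1898 (without FO CKO replicate 1) to 2884 genes in CKO mice and 0 for the difference between genotypes. With the replicate block, which pairs libraries by animal, the counts were 7805 in control mice, 6333 in CKO mice and 4 for the difference between genotypes; the count of genes at least 2-fold different was 1402. Beside the calls named in the report, the block changed no other call of the 217 named genes followed through the alternatives. Of 2472 values of the 177 called genes named here, 2354 kept their call and direction under an alternative and 118 missed the threshold. These 118 came from 33 genes, 17 of which lost the call under at least 4 alternatives: Dtx2, Mybl1, Klf7, Pdcd1, Idi1, Ighg1, Klf9, Ccr9, Esam, Tyms, Arhgef1, Bcl2l1, Klf12, Mfng, S1pr2, S1pr5 and Thy1. The others lost it under 1 to 3: Tnfrsf1a, Abcg1, Bcl2l2, Cnr2, Hk2, Iglc1, Nrarp, Ahr and Hes1 where a library was left out, Cxcr3, Gcsam, Klf4, Oas3 and Rgs2 with all 12 libraries in 1 fit, Bcl11b with the block, and Zbtb24 without FO Control replicate 1 or 2 or MZ Control replicate 1. The cause was not tested. Of 518 counts of list members, 455 stayed within 1.5 times. RLE scaling moved the median of all genes by -0.0108.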

Other observations

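Genes of cytosolic ribosomal proteins, a family grouped by symbol after the data had been seen, were mostly higher in MZ B cells (edgeR's quasi-likelihood test). Of 78 tested, 76 were higher and 0 lower, with a median difference of 0.45, against 14.9% of all genes higher. Their summed level was 58700.2, 60259.6 and 55818 CPM in the FO and 79783, 78690.2 and 81063 CPM in the MZ libraries, so every MZ library lay above every FO library. Under RLE scaling 76 and in DESeq2 77 of 78 were higher, and leaving out 1 library gave 70 to 74. In CKO mice 58 were higher and 0 lower, and 15 without FO CKO replicate 1, 26 without FO CKO replicate 2 and 35 without MZ CKO replicate 1. Ribosomal protein genes have many processed copies in the genome, so single values can be affected by how reads matching several places were handled. The share of listed reads that aligned to more than 1 place came to 26.2, 24.1 and 27.8% in MZ libraries against 21.5, 23.6 and 19.6% in FO libraries. The part of such reads in the difference was not tested. Subunits of respiratory complex I were higher in 11 of 36 and lower in 0, so 30.6% were called, near the 27.9% of all genes tested. Mitochondrial ribosomal proteins were higher in 9 and lower in 1 of 77, 13.0% called. Of 10 protein-coding genes of the mitochondrial genome tested, 1 was higher; without MZ Control replicate 2, 7 were, and without any other library, 0. The mitochondrial share of gene counts was 1.67, 1.18 and 1.46% in MZ libraries, against 0.867, 0.941 and 0.934% in FO libraries. In CKO animals 1512, 1514 and 2002 it was 1.13, 1.14 and 1.3% in MZ and 1.05, 0.945 and 1.09% in FO libraries. Of 12 such protein-coding genes tested in CKO mice 0 were called, with a median difference of -0.02. Kappa V genes were lower in MZ B cells in 38 of 93 and higher in 6, so 47.3% were called. Of 103 heavy chain V genes 2 were lower and 3 higher, 4.85% called, against 27.9% of all genes tested. With the animal as a block these counts were 53 and 11, and 25 and 15, where 43.8% of all genes were called.

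Some genes differed between animals alike in both cell types. Of 10472 genes with a mean of at least 5 CPM, 96 had the same order of animals and at least a 2-fold range between animals in both cell types. Tlr6, a Toll-like receptor gene, was at 29.4, 12.6 and 51.6 CPM in FO and 33.2, 15.7 and 51.1 CPM in MZ libraries. Heavy chain V genes made up 16 of the 96, and 12 of these were lowest in animal 1507 in both cell types. Ighv1-76 was at 10.1, 0.409 and 13.7 CPM in FO and 9.51, 0.159 and 10.6 CPM in MZ libraries, and Ighv8-8 at 22.0, 0.746 and 23.8 and 15.3, 1.66 and 16.6 CPM. Hbb-bs, a hemoglobin gene of red cells, was lowest in animal 2003, at 66.1, 89.2 and 2.06 CPM in FO and 49.8, 73.6 and 2.35 CPM in MZ libraries. These genes were chosen after their values were seen.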
